A study of Mus musculus and Homo sapiens
Mus musculus with 12 samples.

Results

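Neurexins, neuroligins and the leucine-rich LRRTM proteins are partners across the synaptic cleft, and 9 of their genes were followed here in single nuclei of the mouse brain. The 9 genes are the neurexins Nrxn2 and Nrxn3, the neuroligins Nlgn1, Nlgn2 and Nlgn3, and Lrrtm1, Lrrtm2, Lrrtm3 and Lrrtm4. They were found by symbol among 34496 gene rows of the brain count tables, and all 9 passed the filter on low counts in each comparison. The study tested a droplet method for total RNA of single nuclei, in which random primers capture transcripts with and without a poly(A) tail. Brain nuclei of male C57BL/6J mice aged 6 to 8 weeks per the study's methods, with no transgene or drug in any group, were taken from fresh or frozen tissue, and reverse transcription used primers with or without a preindex, a short well barcode. The 7 brain libraries were frozen without preindex (2), frozen with preindex (2), fresh without preindex (2) and fresh with preindex (1). The labels do not say whether libraries came from separate mice, so p-values measure only the spread between these libraries, which may be technical. The primer groups follow the sample titles. For 4 of the 7 libraries another label names the opposite primer. Barcode length in the tables went with the titles, at 40 bases in each of the 3 preindexed libraries and 30 in each of the rest.

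Neurexins sit in the presynaptic membrane, are made in very many splice forms and bind neuroligins and LRRTMs on the postsynaptic side. Nlgn1 is best known at excitatory synapses, Nlgn2 at inhibitory synapses and Nlgn3 at both. LRRTMs are postsynaptic proteins of excitatory synapses, where they help to hold AMPA receptors. Secreted proteins such as cerebellins and neurexophilins also bind neurexins, and MDGA proteins block neuroligins.

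The preindexed reverse transcription primers are shown because calls among the 9 genes between libraries came with the primer and not with storage. Random priming is the method the study describes, and its list of oligonucleotides also holds an oligo-dT primer of the same build. They share a 27-base handle, followed by a 10-base well barcode written as n, and the capitals mark the end that pairs with RNA, a run of 20 T in the first and 7 random bases in the second.
oligo-dT primer: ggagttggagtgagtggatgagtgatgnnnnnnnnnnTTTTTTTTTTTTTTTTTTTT
random primer: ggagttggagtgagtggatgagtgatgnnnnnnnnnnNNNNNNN
The listed well barcodes were found in 3100 of 3100 nuclei of the preindexed fresh library but in only 175 of 2300 and 159 of 1998 nuclei of the preindexed frozen libraries. The primers shown thus match the barcodes of 1 of the 3 preindexed libraries. The sequence of the primer without preindex is not given in the sources used here.

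The tables held 11198 nuclei, from 700 to 3100 in a library, with 8605214 to 42439731 unique fragment identifiers (UFIs, the molecule counts of this method) in all and a median of 9011.5 to 27543 UFIs per nucleus. Clustering without the 9 genes and their listed partners gave 34 clusters, of which 23 were neuron-like and held 9777 nuclei. A cluster of 481 nuclei carried every listed marker of kidney tubules and lay in the 2 preindexed frozen libraries alone (268 and 213 nuclei). Its nuclei carried preindexes that only 3 other nuclei of the first and 0 of the second library shared. A liver-like cluster of 19 nuclei lay in the preindexed fresh library. Both cerebellar granule-like clusters, with 259 nuclei, had none in the preindexed libraries. The kidney-like and liver-like clusters are not in the neuron-like set, so results over all nuclei are given beside those for neuron-like nuclei. The cerebellar granule-like clusters are in both sets, so their absence goes with the preindex in either. Across 7 pairs of libraries, 32 barcodes were shared, with 0 pairs of near-identical nuclei.

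The 9 genes differ widely in length, and the deposited counts cover whole genes, introns included. In the GENCODE M21 annotation of GRCm38, Nrxn3 lies on chromosome 12 (88722876 to 90334935, plus strand) and spans 1612 kb, and Nlgn1 lies on chromosome 3 (25426215 to 26332460, minus strand) and spans 906 kb. Lrrtm4 lies on chromosome 6 (80018877 to 80810143, plus strand) and spans 791 kb, and Lrrtm3 on chromosome 10 (63928472 to 64090277, minus strand) spans 162 kb. Nrxn2 on chromosome 19 (6418731 to 6544169, plus strand) spans 125 kb. The shorter genes are Nlgn3 on chromosome X (101299168 to 101325963, plus strand, 26.8 kb), Lrrtm1 on chromosome 6 (77242689 to 77257791, plus strand, 15.1 kb), Nlgn2 on chromosome 11 (69823122 to 69837784, minus strand, 14.7 kb) and Lrrtm2 on chromosome 18 (minus strand, 6.02 kb). Exons made up 0.777% of the Lrrtm4 span and 0.782% of the Nrxn3 span, against 39.5% for Nlgn2 and 100% for Lrrtm2.

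Lrrtm1, Lrrtm2 and Lrrtm3 each lie wholly within an alpha-catenin gene on the other strand, Ctnna2, Ctnna1 and Ctnna3 respectively. The study describes UFI counts as strand-specific, and the setting of the gene counting step is not given in the sources used here. Over all nuclei Lrrtm1 held 2856 UFIs and its host 375151, Lrrtm2 held 4377 and its host 5797, and Lrrtm3 held 102553 and its host 9963. Nlgn3 shares 82.8% of its span with Gm21986 on the same strand, which held 76 UFIs against 6058. Slc22a12, a kidney urate transporter gene, overlaps 5.73% of Nrxn2 on the other strand and held 868 UFIs against 57651.

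UFIs of the summed neuron-like nuclei were scaled to the library total (CPM) and divided by gene span, which put the 9 genes between 1.10 and 5.98 CPM per kb. Nlgn2 stood at 5.98 ± 1.37 CPM per kb (SD, n = 7 libraries), Lrrtm4 at 4.28 ± 0.424, Lrrtm2 at 4.23 ± 0.463, Nlgn1 at 4.18 ± 0.417, Nrxn3 at 3.72 ± 0.369 and Lrrtm3 at 3.65 ± 0.262. Nrxn2 (2.56 ± 0.25 CPM per kb), Nlgn3 (1.28 ± 0.312) and Lrrtm1 (1.10 ± 0.156) were lower. Nlgn3 was divided by its full span, of which 82.8% is shared with Gm21986 on the same strand. How reads in a span shared by 2 genes were counted is not given in the sources used here. The Nlgn3 value per kb could therefore be too low, and its place among the 9 genes is uncertain. Per length, Lrrtm3 thus stood far above its host Ctnna3 (0.0266 ± 0.00238 CPM per kb) and Lrrtm2 above Ctnna1 (0.158 ± 0.0131), whereas Lrrtm1 stood below Ctnna2 (1.97 ± 0.0927).

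Levels by kind of nuclei were then compared over the 14 neuron-like clusters that had at least 20 nuclei in at least 6 libraries. Each cluster is named by marker genes or, where these gave no name or conflicting names, by its leading genes. By the ratio of highest to lowest mean, Nrxn3 varied 6.02-fold between kinds, Lrrtm3 5.82-fold, Lrrtm4 5.5-fold, Lrrtm1 4.56-fold, Lrrtm2 4.18-fold and Nlgn1 3.76-fold. Nrxn2 (2.96-fold) and Nlgn3 (2.83-fold) varied less, and Nlgn2 least (1.5-fold). These values are descriptions over the clusters. The order held 15 clusters in at least 6 libraries, these 14 and the oligodendrocyte-like cluster. Neighbours in it were compared by an exact two-sided sign-flip permutation test. After adjustment 0 of 126 differences passed (smallest adjusted p = 0.219), and 17 had an unadjusted p under 0.05. The smallest unadjusted p this test can give is 0.01562 with 7 libraries and 0.03125 with 6. No pair could therefore pass among 126 unless many reached that floor, so 0 passing says little about the order. A sum over nuclei cannot tell fewer cells with the RNA from less RNA per cell.

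**Figure D1:**
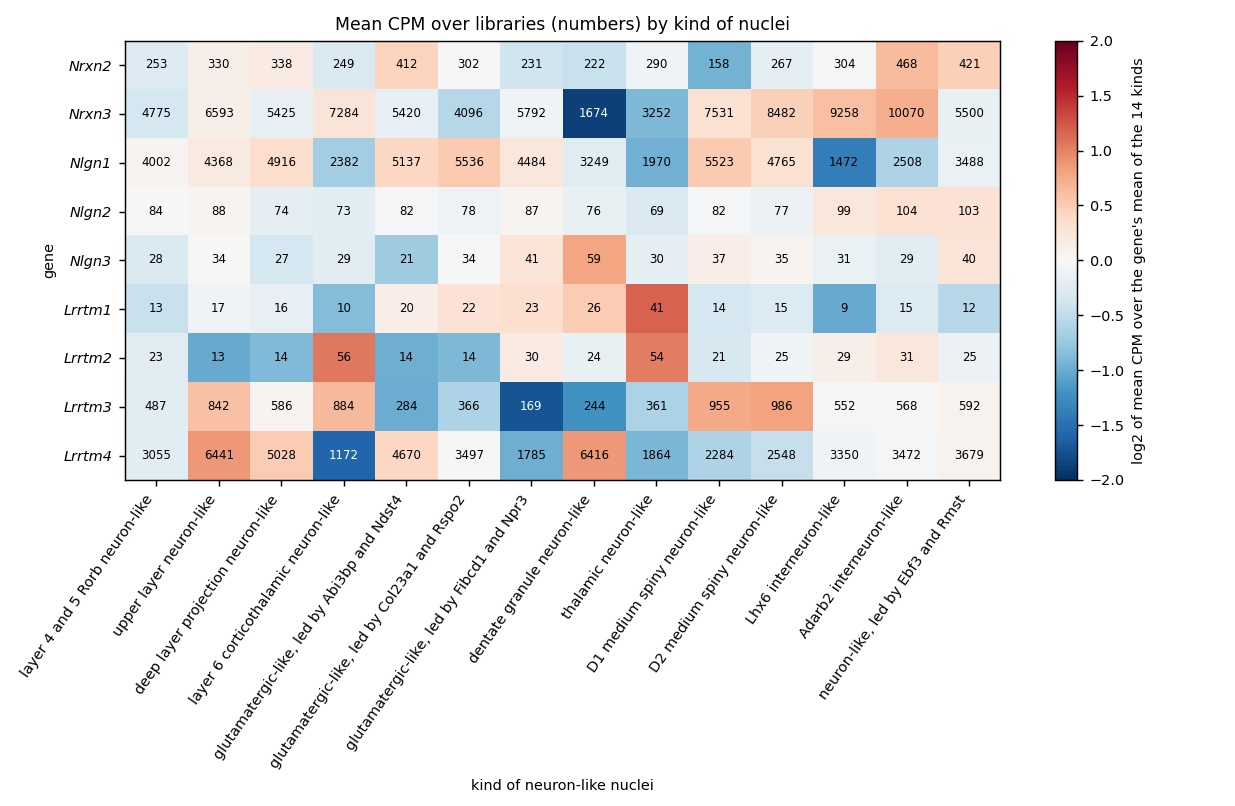
Mean CPM of the 9 genes (rows, numbers in the cells) in 14 kinds of neuron-like nuclei (columns), with the colour giving the log2 ratio to the gene's mean over the 14 kinds. Lrrtm4 is high in upper layer and dentate granule neuron-like nuclei (6441 and 6416 CPM), and Nrxn3 is high in both kinds of interneuron-like nuclei and low in dentate granule neuron-like nuclei (1674 CPM).

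Nrxn3, a presynaptic neurexin, was highest in Adarb2 interneuron-like nuclei at 7852 to 14480 CPM (median 9711 over 6 libraries) and lowest in dentate granule neuron-like nuclei at 1299 to 2417 CPM (median 1450 over 7). The libraries of these kinds did not overlap, and the means differed 6.02-fold. Lhx6 interneuron-like nuclei stood at 9258 ± 757 CPM (SD, n = 7), D2 medium spiny neuron-like nuclei at 8482 ± 1184 and D1 medium spiny neuron-like nuclei at 7531 ± 937. Thalamic neuron-like nuclei were the next lowest at 3252 ± 744 CPM (n = 6). Nrxn2, the other neurexin, had another order. It was highest in Adarb2 interneuron-like nuclei (417.5 to 571 CPM, median 435.1) and lowest in D1 medium spiny neuron-like nuclei (135.9 to 183.9 CPM, median 155.8), again without overlap. Between the medium spiny kinds, the projection neurons of the striatum, Nrxn2 was higher in D2 (267 ± 42.1 CPM) than in D1 nuclei (158 ± 20.1) in 7 of 7 libraries.

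Nlgn1, the neuroligin of excitatory synapses, was highest in a glutamatergic-like cluster led by Col23a1 and Rspo2 (4837 to 6604 CPM, median 5389) and in D1 medium spiny neuron-like nuclei (4954 to 6149 CPM, median 5607), a pair that overlapped. It was lowest in Lhx6 interneuron-like nuclei, at 1226 to 1927 CPM (median 1413), 3.76-fold below the highest kind by the means. In Adarb2 interneuron-like nuclei it stood at 2508 ± 260 CPM and was above the Lhx6 value in 6 of 6 shared libraries. Nlgn2, the neuroligin of inhibitory synapses, ranged only from 69.1 ± 18.4 CPM in thalamic to 104 ± 40.7 in Adarb2 interneuron-like nuclei. Its coefficient of variation between kinds, 13.1%, was below the median one between libraries, 26.6%, which takes in both primers. Within libraries, Nlgn2 was higher in Adarb2 interneuron-like than in thalamic nuclei in 6 of 6, and in upper layer than in layer 6 nuclei in 7 of 7. It was higher in D1 than in D2 nuclei in 4 of 7, in dentate granule than in layer 6 nuclei in 5 of 7, and in Lhx6 than in Adarb2 nuclei in 3 of 6. Nlgn3 was highest in dentate granule neuron-like nuclei (40.4 to 83.98 CPM, median 49.39) and lowest in the glutamatergic-like cluster led by Abi3bp and Ndst4 (12.02 to 31.21 CPM, median 20.31).

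Lrrtm4 and Lrrtm2, both postsynaptic LRRTMs, stood at opposite ends in upper layer and layer 6 corticothalamic neuron-like nuclei. Lrrtm4 reached 4541 to 7992 CPM (median 6823) in upper layer and 5123 to 7407 CPM (median 6246) in dentate granule neuron-like nuclei, and 906.9 to 1476 CPM (median 1116) in layer 6 corticothalamic neuron-like nuclei. Lrrtm2 reached 35.09 to 67.03 CPM (median 59.28) in these layer 6 nuclei and 8.407 to 18.35 CPM (median 13.52) in upper layer nuclei. In dentate granule neuron-like nuclei, where Lrrtm4 was also high, Lrrtm2 stood at 24.12 CPM, close to its median over the kinds (24.4). In each of 7 libraries, Lrrtm4 was higher and Lrrtm2 lower in upper layer than in layer 6 nuclei. The 2 genes had a Pearson r of -0.761 over the 15 clusters, as a description over clusters that share their libraries, and Nlgn1 and Lrrtm2 had -0.726.

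Lrrtm3 was highest in D2 (753.4 to 1185 CPM, median 979.3) and D1 medium spiny neuron-like nuclei (824.9 to 1144 CPM, median 957), which overlapped. Layer 6 corticothalamic neuron-like nuclei (884 ± 118 CPM) and upper layer nuclei (842 ± 58.3) were close to them. Its lowest level was 58.36 to 397.9 CPM (median 120.7) in a glutamatergic-like cluster led by Fibcd1 and Npr3, and dentate granule neuron-like nuclei stood at 244 ± 35 CPM. The cluster led by Fibcd1 and Npr3 met the marker rules of both deep layer projection (4 of 7) and hippocampal pyramidal neurons (3 of 6). Whether it mixes kinds was not tested. Lrrtm1 was highest in thalamic neuron-like nuclei, at 25.39 to 54.43 CPM (median 43.35 over 6 libraries), and lowest in Lhx6 interneuron-like nuclei, at 3.435 to 14.41 CPM (median 8.645). The median coefficient of variation of Lrrtm1 between libraries was 28%, against 10.1% for Nlgn1, 26.6% for Nlgn2 and 30.3% for Nlgn3. The part of low counts in this spread was not tested.

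The genes most alike in pattern were sought among 9802 genes by Pearson correlation of log2(CPM + 1) over the same 15 clusters. For Nrxn3 they were Vgf (0.873), Gabrg3 (0.858) and Gmcl1 (0.828), and for Nrxn2 Scpep1 (0.825), Gtf3c3 (0.823) and Bid (0.814). The neurexins thus had different nearest genes. For Nlgn1 they were Rgs14 (0.863), Rgl1 (0.855) and Lzts1 (0.852), for Nlgn2 Pnma2 (0.847), Ttc3 (0.844) and Zfp974 (0.833), and for Nlgn3 Ip6k1 (0.899), Paqr9 (0.883) and Ccni (0.845). Lrrtm1 was most like Kcnip4 (0.863), Src (0.857) and Pkp2 (0.822), and Lrrtm2 most like Brd7 (0.879), Fam168a (0.873) and Atp2a2 (0.808). The nearest genes were Gm10118 (0.899), Vti1b (0.897) and Ppp1r12c (0.843) for Lrrtm3 and Cntnap5a (0.844), Fbxo41 (0.809) and Zfp382 (0.801) for Lrrtm4. The highest of many correlations over 15 points are large by selection, so they serve as a description.

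Glutamatergic-like nuclei (4654 in 10 clusters) and GABAergic-like nuclei (2565 in 8 clusters) were compared within libraries. Of the GABAergic-like nuclei, 25 were in a cluster led by the cholinergic gene Chat. Some clusters met only the neuron-like rule and are in neither group, among them the dentate granule (407 nuclei) and thalamic (347 nuclei) neuron-like ones. These kinds had the highest Lrrtm1 (41.29 CPM in thalamic) and the lowest Nrxn3 (1674 CPM in dentate granule) of the kinds compared above. Of the 9 genes, 2 were higher and 2 lower in glutamatergic-like nuclei at an adjusted p under 0.05 (edgeR quasi-likelihood test with the library as a block), where 48.3% of 12793 genes passed. By direction 23.9% of genes were higher and 24.4% lower, so that 4 of 9 is near the background. With scaling by total UFIs 2522 of 6502 calls were higher, against 3062 of 6185 with TMM, and the median of all genes moved from -0.0186 to -0.174 with DESeq2, where the same 2 and 2 members were called by direction. Whether these differences changed with the primer or with storage was tested as well, and 0 of 9 genes passed either test by edgeR (background 0.297%, of which 0.109% higher and 0.188% lower, for the primer and 0% for storage), with 1 of 9 at an unadjusted p under 0.05 in each. DESeq2 was not run for these 2 tests.

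Nrxn3 stood at 4942 to 5814 CPM (median 5394) in the glutamatergic-like and at 7511 to 9854 CPM (median 8886) in the GABAergic-like nuclei of the 7 libraries. The groups did not overlap, and the log2 fold change was -0.63 ± 0.05 (SE), adjusted p = 1.12e-07 by edgeR. Lrrtm3 also stood lower in glutamatergic-like nuclei in 7 of 7 libraries, at 502.8 to 582.1 CPM (median 562.7) against 644.9 to 909.6 (median 812), with a log2 fold change of -0.38 ± 0.06 (adjusted p = 0.000232 by edgeR). By kind, mean Lrrtm3 was 955.3 CPM in D1 and 986.5 in D2 medium spiny neuron-like nuclei. It was only 551.7 CPM in Lhx6 and 567.7 in Adarb2 interneuron-like nuclei, near the glutamatergic-like mean of 553.2. Upper layer (841.8 CPM) and layer 6 corticothalamic neuron-like nuclei (884.4) stood above both interneuron-like kinds. The part of the medium spiny nuclei in the Lrrtm3 difference was not tested.

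Lrrtm4 was higher in glutamatergic-like nuclei, with 2796 to 4154 CPM (median 3686) against 2388 to 2963 (median 2865). The groups overlapped, 6 of 7 libraries had the same direction, and the log2 fold change was 0.40 ± 0.07 (adjusted p = 0.000452 by edgeR). Nlgn1 stood at 3695 to 4602 CPM (median 4196) against 3083 to 4083 (median 3882), higher in 7 of 7 libraries, with a log2 fold change of 0.26 ± 0.04 (adjusted p = 0.000212 by edgeR). Nlgn1 rested on the within-library comparison, since without the library block its adjusted p was 0.0738 by edgeR.

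The other 5 genes did not pass. Nlgn2, named above for inhibitory synapses, had a log2 fold change of -0.07 ± 0.05 and Nrxn2 of 0.10 ± 0.06. Nlgn3 had -0.14 ± 0.07 (adjusted p = 0.11 by edgeR) and was lower in 7 of 7 libraries. Lrrtm1 had 0.29 ± 0.13 and Lrrtm2 -0.20 ± 0.10. Nlgn3, Lrrtm1 and Lrrtm2 each passed under some other setting. Lrrtm1 passed without frozen preindexed replicate 1 (0.38, adjusted p = 0.0377) or 2 (0.38, adjusted p = 0.0451), and Lrrtm2 without frozen replicate 1 without preindex (-0.24, adjusted p = 0.0444) or the preindexed fresh library (-0.28, adjusted p = 0.0231), all by edgeR. Scaling by total UFIs also gave calls for Nlgn3 (-0.21, adjusted p = 0.0274) and Lrrtm2 (-0.26, adjusted p = 0.0452) by edgeR. These are not all the added calls. Settings that kept every library or changed the processing added 5 calls among these genes, and the rest are not itemised here. Lrrtm1 was called more strongly in such a setting, with a lowest adjusted p of 0.007 by edgeR over 15 settings. Its log2 fold change ran from 0.2248 to 0.3792 over them, and its highest adjusted p was 0.184. Both D1 and D2 medium spiny neuron-like nuclei are in the GABAergic-like group, and their Nlgn1 (5523 ± 461 and 4765 ± 465 CPM) lay far above that of Lhx6 interneuron-like nuclei.

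**Figure D2:**
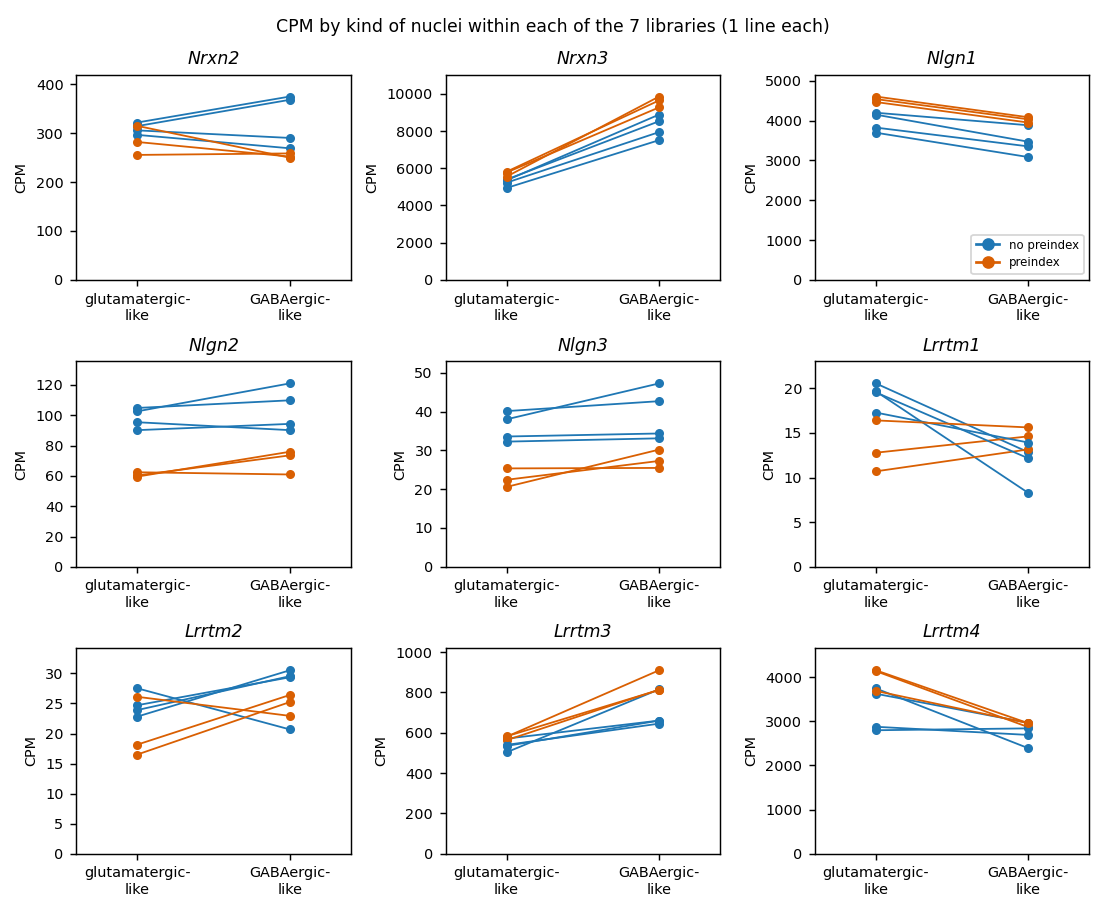
CPM of the 9 genes in summed glutamatergic-like and GABAergic-like nuclei, with each line joining the 2 values of 1 library, blue without and orange with preindex. All 7 lines rise for Nrxn3, Lrrtm3 and Nlgn3, and all 7 fall for Nlgn1.

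Nuclei that are not neuron-like also held counts of the 9 genes. Levels pooled over all nuclei of such a cluster were set against the mean over the 14 neuron-like clusters, for the 9 genes and for 8 neuronal markers. The markers stood at a median of 58% in oligodendrocyte-like nuclei (range 51.2% to 60%), 62% in astrocyte-like nuclei (51.8% to 65.4%) and 56.3% in nuclei of oligodendrocyte precursor (OPC)-like kind (43.7% to 71.1%). In the kidney tubule-like nuclei the median was 0.417% (0.247% to 2.2%), and the 9 genes lay at 0% to 3.48%, with Nlgn2 highest. In microglia-like nuclei the markers stood higher, at a median of 89.8% (76.4% to 100%). Slc17a7, a glutamatergic marker outside the 8, lay above their range at 64.9% in oligodendrocyte-like, 71.9% in astrocyte-like and 73.9% in OPC-like nuclei. The GABAergic markers Gad1 (53.1%, 45.3% and 57.8%) and Gad2 (45.5%, 56.3% and 8.74%) did not. A level within the range of a cluster's neuronal markers cannot be told apart from background neuronal RNA, nor can a level near that of Slc17a7. Whether levels above that range come from the glia-like nuclei themselves was not tested, and doublets were kept.

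In OPC-like nuclei all 9 genes were above that range, but Nrxn3 (76.1%) lay near Slc17a7 (73.9%). Pooled over the 106 nuclei, Nrxn2 stood at 289% of its neuronal mean, Nlgn3 at 160%, Nlgn2 at 144%, Nlgn1 at 133% and Lrrtm3 at 131%, and the other 4 lay between 76.1% (Nrxn3) and 98.5% (Lrrtm4). The mean over the 3 libraries with at least 20 such nuclei kept Nrxn2 highest (838 ± 88.4 CPM, SD, 276%) but changed the order of the rest, to Lrrtm3 at 160%, Nlgn1 at 148%, Nlgn2 at 133% and Nlgn3 at 118%. By this mean Nrxn3 stood at 75.1% and Lrrtm1 at 73.7% (95.7% when pooled), both near the pooled Slc17a7. These 3 libraries were all preindexed, whereas the neuronal mean took in libraries with and without preindex. The part of the primer in the changed order was not tested. In astrocyte-like nuclei the pooled levels were above the marker range for Nrxn2 (141%), Nlgn3 (110%), Nlgn2 (104%), Nlgn1 (81.7%) and Lrrtm1 (76%), and within it for the other 4, with Nrxn3 at 62.7%. Lrrtm1 there lay near Slc17a7 (71.9%). In oligodendrocyte-like nuclei the pooled levels were above the range for Lrrtm2 (100%), Nrxn2 (98.2%), Nlgn2 (83.5%), Nlgn3 (71.5%), Lrrtm3 (68.8%) and Nlgn1 (68.1%), and within it for Lrrtm1, Lrrtm4 and Nrxn3. Nlgn3, Lrrtm3 and Nlgn1 there lay near Slc17a7 (64.9%). By the mean over 7 libraries they stood at 65.9%, 70% and 69.3%. In endothelial- and pericyte-like nuclei (markers 44.3% to 68.2%), Nlgn2 (85.9%), Nlgn3 (79.9%), Nrxn2 (75.5%) and Lrrtm2 (72%) were above the range, and Slc17a7 stood at 87.8%. In microglia-like nuclei Lrrtm3 (110%) and Nlgn2 (106%) were above theirs. The remaining genes were not above the range in either kind. Levels above the marker range were thus not confined to the glia-like kinds named first. These differences were not tested.

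Storage was compared between 4 frozen and 3 fresh libraries in a fit with the primer as a second factor. In neuron-like nuclei, 0 of 9 genes passed in edgeR, where 0.338% of 18050 genes did (0.172% higher, 0.166% lower), and 3 of 9 had an unadjusted p under 0.05. Over all nuclei, 0 of 9 passed in edgeR against a background of 0.207% (0.114% higher, 0.0933% lower), and 4 had an unadjusted p under 0.05. DESeq2 also called 0 of 9 in both sets. Frozen and fresh libraries overlapped in CPM for all 9 genes in both sets, where 6.35% of genes did not overlap in neuron-like and 7.6% in all nuclei. The log2 fold changes in neuron-like nuclei ran from -0.17 ± 0.09 for Lrrtm1 to 0.14 ± 0.04 for Lrrtm4. Without the preindexed fresh library, 3 genes passed in neuron-like nuclei, namely Nlgn1 (0.19, adjusted p = 0.0453), Lrrtm4 (0.18, adjusted p = 0.0476) and Nlgn3 (-0.27, adjusted p = 0.0293), all by edgeR, and over all nuclei Nlgn3 passed (-0.30, adjusted p = 0.021). All genes called then numbered 670 and 840 in these sets, against 61 and 40 with every library. The share of calls that were higher in neuron-like nuclei was 31 of 61 with TMM and 20 of 65 with scaling by total UFIs, and over all nuclei 22 of 40 and 19 of 44.

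In contrast to storage, the preindex gave calls in both sets of nuclei. The make-up of the libraries also differed with the primer. Cerebellar granule-like nuclei, in both sets, came from libraries without preindex alone. GABAergic-like nuclei, in which Nrxn3 and Lrrtm3 were higher when summed, made up 24.7%, 26.3% and 24.4% of the preindexed libraries. They made up 15.3%, 21%, 19.5% and 19% of the others. The part of either difference in these calls was not tested. In neuron-like nuclei 4 genes were higher in preindexed libraries (Nrxn3, Nlgn1, Lrrtm4 and Lrrtm3) and 2 were lower (Nlgn2 and Nlgn3) by edgeR, where 11.2% of 18050 genes were called higher and 9.41% lower, 20.6% in all. Over all nuclei, 3 were higher and 3 lower, against 15.8% of 19299 genes (7.88% higher and 7.88% lower), and 27.9% of genes did not overlap there. Preindexed and other libraries did not overlap in CPM for 8 of 9 genes in neuron-like nuclei, where 33.2% of all genes did not overlap. Lrrtm1 was the exception.

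**Figure D3:**
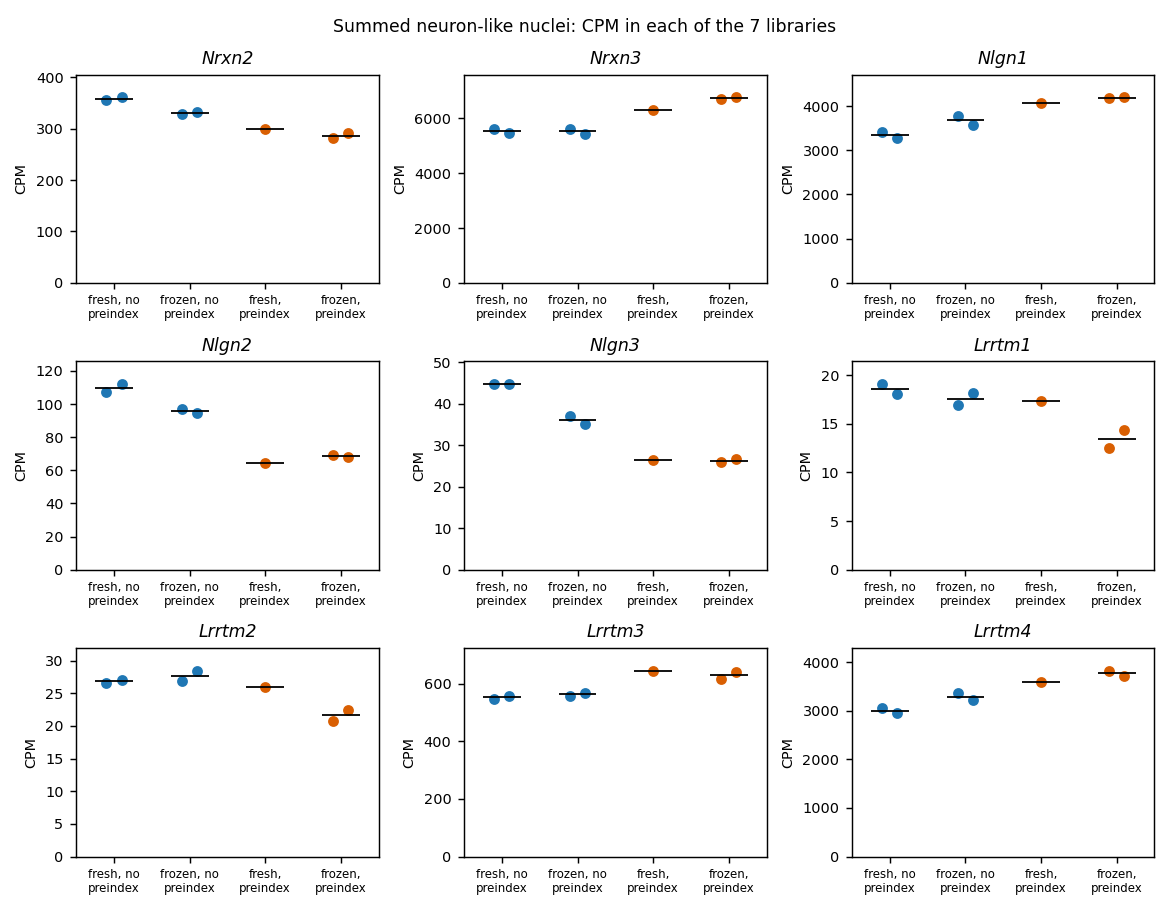
CPM of the 9 genes in the summed neuron-like nuclei of each library, by storage and primer, with a black line at the mean of each group. Points without preindex are blue and preindexed points orange, and for Nlgn2 and Nlgn3 all 3 preindexed libraries lie below the other 4.

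Nlgn2 stood at 96.97, 94.76, 107.6 and 112.3 CPM in the libraries without preindex and at 68.98, 68.28 and 64.41 CPM in the preindexed ones. Every preindexed library was below every other one, with a log2 fold change of -0.45 ± 0.06 (adjusted p = 0.000673 by edgeR). Nlgn3 stood at 37.09, 35.13, 44.82 and 44.82 CPM without preindex. It stood at 25.9, 26.72 and 26.45 CPM with it, again with no overlap (log2 fold change -0.44 ± 0.07, adjusted p = 0.00172 by edgeR). Within clusters, both genes were lower in the preindexed mean in 14 of 14 neuron-like kinds.

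Nrxn3 stood at 5608, 5436, 5612 and 5465 CPM without preindex and at 6707, 6786 and 6313 CPM with it. Its log2 fold change was 0.40 ± 0.04 (adjusted p = 0.000107 by edgeR), without overlap. Nlgn1 stood at 3787, 3577, 3408 and 3282 CPM against 4175, 4211 and 4077, a log2 fold change of 0.38 ± 0.05 (adjusted p = 0.000337 by edgeR). Its libraries did not overlap, and its preindexed mean was higher in 13 of 14 kinds, as that of Nrxn3 was in 11.

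Lrrtm4 stood at 3361, 3221, 3057 and 2950 CPM without and at 3830, 3723 and 3586 CPM with preindex (log2 fold change 0.37 ± 0.04, adjusted p = 0.000264 by edgeR). Lrrtm3 stood at 559.3, 568.04, 547.4 and 559.2 CPM against 617.9, 641.7 and 646 (0.34 ± 0.04, adjusted p = 0.0003 by edgeR). Neither gene overlapped between the groups of libraries, but within kinds the CPM of Lrrtm3 was higher in only 7 of 14.

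Nrxn2, Lrrtm1 and Lrrtm2 did not pass in neuron-like nuclei, with log2 fold changes of -0.08 ± 0.04, -0.10 ± 0.09 and -0.06 ± 0.08. The TMM scaling of the fit sets the median gene near 0 (-0.0389). With scaling by total UFIs the median moved to -0.193 and all 6 called genes kept their direction and their call. Nrxn2 then passed as well (-0.23, adjusted p = 0.00278 by edgeR). The CPM printed above are scaled to total UFIs too, so they differ in size from the fold changes beside them. The log2 ratios of their group means were smaller for the rises, at 0.26 (Nrxn3), 0.24 (Nlgn1), 0.24 (Lrrtm4) and 0.19 (Lrrtm3). For the falls they were larger, at -0.61 (Nlgn2) and -0.62 (Nlgn3). All genes called by edgeR split into 2016 higher and 1698 lower with TMM, but only 671 of 4719 were higher with total UFIs, and 1996 of 2969 with DESeq2. Over all nuclei 1521 of 3041 were higher with TMM, 856 of 3183 with total UFIs and 2007 of 3145 with DESeq2.

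**Figure D4:**
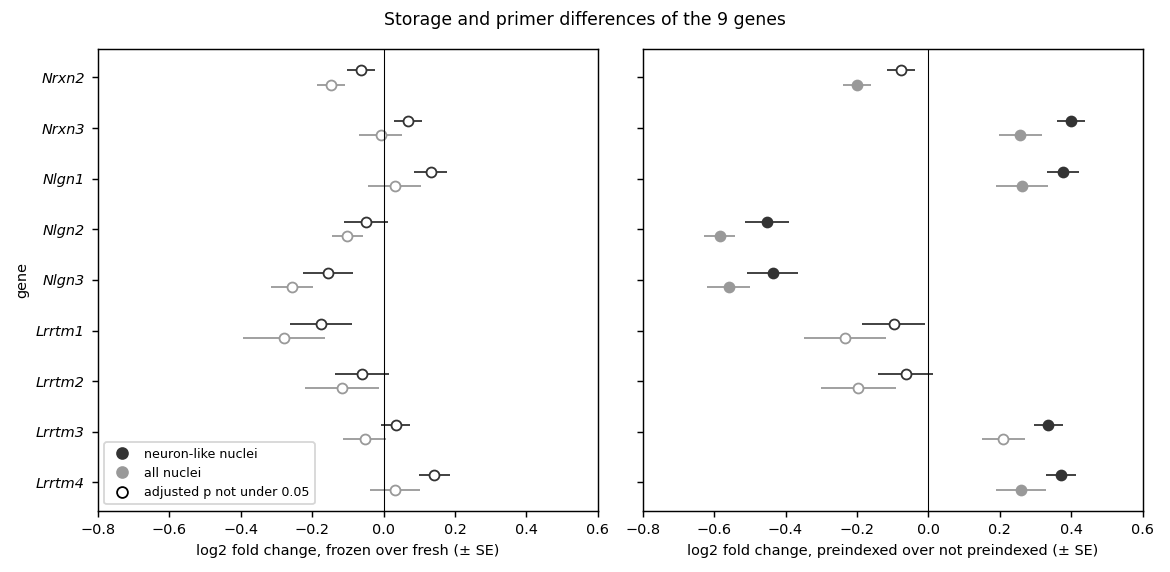
Log2 fold changes (points, with bars of 1 SE) of the 9 genes between frozen and fresh libraries on the left and between preindexed and other libraries on the right, in neuron-like (black) and all nuclei (grey). Filled points passed an adjusted p under 0.05, which occurs on the right alone.

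Over all nuclei, Nrxn2 fell by 0.20 on the log2 scale in preindexed libraries (± 0.04, adjusted p = 0.017 by edgeR). Without the nuclei of the kidney and liver clusters the value was -0.07 (adjusted p = 0.246 by edgeR). Lrrtm3 went the other way, at 0.21 ± 0.06 (adjusted p = 0.0539 by edgeR) with and 0.34 (adjusted p = 0.00057) without these nuclei. Ctnna1, the host of Lrrtm2, stood at 47.35 and 48.87 CPM in the preindexed frozen libraries and at 21.61 to 27.36 CPM in the other 5, and at 315 ± 26.5 CPM in kidney tubule-like nuclei. In neuron-like nuclei its difference on the log2 scale was 0.14 ± 0.09 (adjusted p = 0.282 by edgeR), while Ctnna2 was higher (0.24 ± 0.04, adjusted p = 0.00105) and Ctnna3 had -0.05 ± 0.06. The calls of Nrxn3, Nlgn1 and Lrrtm4 over all nuclei were lost without any 1 of 5 libraries (adjusted p by edgeR 0.0509 to 0.127), and kept without frozen replicate 1 without preindex or without the preindexed fresh library. The call of Nrxn2 was lost without frozen replicate 2 without preindex or either preindexed frozen library (adjusted p by edgeR 0.0614 to 0.0784). Without the preindexed fresh library, Lrrtm1 (-0.45) and Lrrtm2 (-0.42) were called as well. In neuron-like nuclei the 6 calls held without any 1 library, and Lrrtm2 was added without the preindexed fresh one (-0.23, adjusted p = 0.037 by edgeR).

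Whether the primer difference changed with storage was tested by an interaction, in which the fresh preindexed group is 1 library. In neuron-like nuclei 0 of 9 genes passed in edgeR and 4 had an unadjusted p under 0.05, where 6.29% of genes passed (3.24% higher, 3.05% lower). DESeq2 was not run for this test. Over all nuclei 5 of 9 passed, all lower, where 16.4% of genes did (9.93% higher, 6.49% lower). They were Lrrtm2 (-0.51 ± 0.10), Lrrtm1 (-0.49 ± 0.14), Lrrtm3 (-0.27 ± 0.06), Nlgn1 (-0.27 ± 0.08) and Lrrtm4 (-0.26 ± 0.07). Without the kidney and liver clusters only Lrrtm2 passed (-0.35, adjusted p = 0.0493 by edgeR), where 7.85% of genes did.

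Among the 9 genes, the sign of the primer difference went with gene span. The 4 genes over 150 kb had log2 fold changes of 0.34 to 0.40 in neuron-like nuclei, and the 5 shorter genes had -0.45 to -0.06. Of the shorter genes only Nlgn2 and Nlgn3 were called. Nrxn2 (-0.08), Lrrtm1 (-0.10) and Lrrtm2 (-0.06) were not, and Lrrtm2 is the shortest of the 9. The 150 kb cut lies between Nrxn2 (125 kb) and Lrrtm3 (162 kb) and was not among the planned comparisons. Over 17310 of 18050 tested genes with a span (95.9%), the median log2 fold change was -0.2 under 10 kb, -0.0843 at 10 to 30 kb, 0.0112 at 30 to 100 kb and 0.0969 at 100 to 300 kb. It was 0.189 at 300 to 1000 kb and 0.291 over 1000 kb (57 genes), with a Spearman rho of 0.272 and a Pearson r of 0.101 across genes, which are not independent replicates. The relation did not hold for each long gene. Ctnna3, the host of Lrrtm3, spans 1574 kb and had -0.05 in neuron-like nuclei, and was lower over all nuclei (-0.30, adjusted p = 0.0411 by edgeR). Nrxn3 (0.40), Nlgn1 (0.38) and Lrrtm4 (0.37) lay above the third quartile of their span classes (0.379, 0.307 and 0.307). Nlgn2 (-0.45) and Nlgn3 (-0.44) lay below the first quartile of theirs (-0.296). Lrrtm3 lay above the third quartile of its class (0.231) and Nrxn2, of the same class, lay within the quartiles. Lrrtm1 and Lrrtm2 also lay within the quartiles of their classes. The part of gene span in these differences was not tested, and other features of genes that go with span were not measured here.

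**Figure D5:**
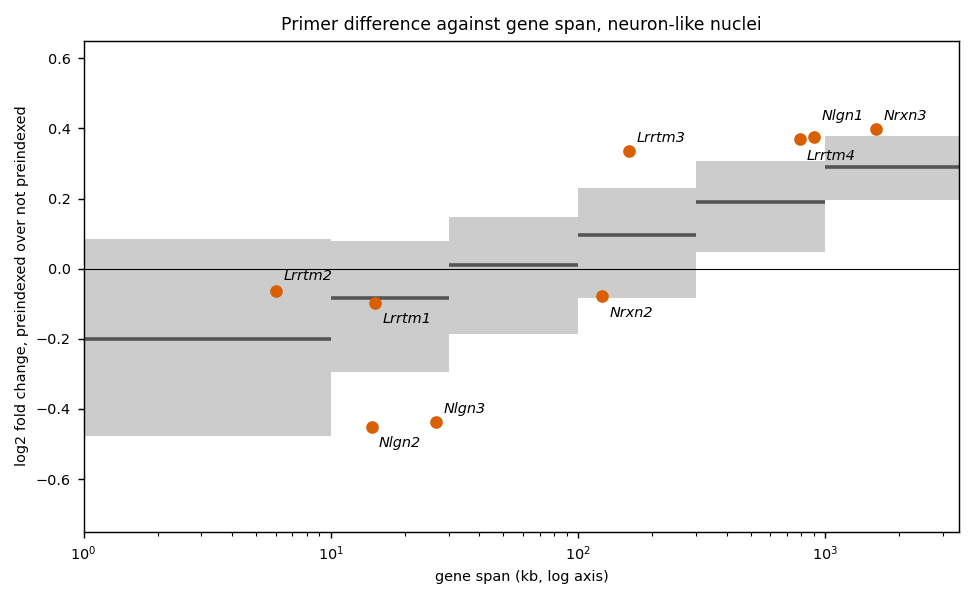
Log2 fold change between preindexed and other libraries in neuron-like nuclei against gene span on a log axis. Orange points are the 9 genes, dark lines the median and grey boxes the quartiles of all genes in 6 span classes, and the medians run from -0.2 under 10 kb to 0.291 over 1000 kb.

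Other synaptic adhesion genes and scaffolds were followed as a list of 54. In glutamatergic-like against GABAergic-like nuclei, 23 were higher and 11 lower of 51 tested, where 23.9% of all genes were higher and 24.4% lower (median 0.10, against -0.02 over all genes). The 5 largest differences were those of secreted or surface partners. Nxph1 (-4.45 ± 0.16) and Nxph2 (-2.75 ± 0.25), which encode neurexophilins that bind neurexins, were lower, and Nxph3 (2.72 ± 0.25) was higher. C1ql3 (3.37 ± 0.12), a secreted C1q-like protein, and Ntng2 (2.79 ± 0.10), a netrin-G of the presynaptic surface, were higher too, all with adjusted p at or below 7.55e-07 by edgeR. For storage, 0 of 54 passed in neuron-like nuclei in edgeR, 14 had an unadjusted p under 0.05 and DESeq2 called 1. For the primer, 15 were higher and 11 lower in neuron-like nuclei, where 11.2% of all genes were higher and 9.41% lower. With scaling by total UFIs that split turned to 9 higher and 19 lower. Over all nuclei 4 were higher and 13 lower, where 7.88% of genes were called in each direction, and with total UFIs 4 higher and 18 lower. Cbln1, a cerebellin of cerebellar granule neurons, was lower in preindexed libraries (-2.31 ± 0.15, adjusted p = 7.13e-06 by edgeR), where the cerebellar granule-like clusters held 0 nuclei. Nxph4 (-1.12 ± 0.19) and C1ql2 (-0.88 ± 0.21) were lower, and Ptprd (0.46 ± 0.06), a receptor phosphatase that binds synaptic partners, and Dlg2 (0.42 ± 0.04), a postsynaptic scaffold, were higher.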

How the data were processed

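Single-nucleus total RNA was measured in 7 brain libraries. Per the study's methods, the authors trimmed reads with cutadapt, selected barcodes with UMI-tools, aligned with STAR, assigned unique reads to whole genes with featureCounts and deposited raw UFI counts per gene and nucleus. The mouse build of the brain tables is not stated beside them (the notes list GRCm38 and mm10). Species-mixing files were not used. Counts were summed per library over all, neuron-like, glutamatergic-like and GABAergic-like nuclei. Clusters came from scanpy 1.11.5 and leidenalg 0.10.2 (2000 variable genes without the listed genes, 40 components, resolution 0.4). Scrublet marked 37 nuclei. How completely it found doublets was not tested, and doublets were kept. Tests used edgeR 4.0.16 (filterByExpr, TMM, quasi-likelihood, storage plus primer) with Benjamini-Hochberg adjustment over all tested genes, DESeq2 1.42.0 being an alternative. The scripts were tested on simulated data. All 9 members were named in each comparison, up to 5 partners by the size of change among those called, and 3 alike genes per member. Members and lists were chosen with earlier results of these data known. The interaction tests were added after the data were seen. Libraries held 8605214 to 42439731 UFIs.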

Additional observations from a re-analysis of the deposited data

Results flagged for a closer look

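In 63 groups of 4 to 7 libraries, 0 had a library standing apart by Dixon's criterion, where chance gives about 1 in 20 for libraries of a single condition. The groups mixed primers or storage, which can hide such a library, so 0 of 63 does not show that none stood apart. Of 36 tests of whether a member's difference changed between groups, 5 passed, all for the primer difference in frozen against fresh tissue over all nuclei, where 16.4% of 19299 genes passed. The log2 interaction was -0.4897 for Lrrtm1, -0.5072 for Lrrtm2, -0.2732 for Lrrtm3, -0.2614 for Lrrtm4 and -0.2714 for Nlgn1 (adjusted p = 0.0265, 0.00305, 0.00808, 0.0271 and 0.0284 by edgeR). It rests on 1 preindexed fresh library. Without nuclei of the kidney and liver clusters, 1 member passed, Lrrtm2 (-0.35, adjusted p = 0.0493 by edgeR), where 7.85% of genes did, and in neuron-like nuclei 0 members passed by edgeR, with 4 at an unadjusted p under 0.05.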

How the results depend on the processing

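Alternatives were compared by the number of the 9 genes called, by the number of all genes called and by each gene's log2 fold change. With at least 50 nuclei per library and cluster, only 1 pair of clusters was left. These were the layer 4 and 5 Rorb neuron-like cluster and a neuron-like cluster led by Ebf3 and Rmst. They were compared for each of the 9 genes and 7 passed. The adjustment was then over 9 tests in place of 126, so this count cannot be set beside 0 of 126. For storage over all nuclei the genes called (40) became 323 with DESeq2, 1937 without the filter (2 of the 9 genes), 5 with the replicate block and 26 in glutamatergic-like nuclei alone (1 of the 9). For storage in neuron-like nuclei the 61 became 147 with DESeq2, 639 without the filter, 30 with the replicate block and 430 without both preindexed frozen libraries. For the primer over all nuclei the 6 of 9 became 3 with upper-quartile scaling, 3 with the replicate block and 2 in GABAergic-like nuclei alone, and the 3041 genes became 4787 without the filter, 1731 with the block, 1573 in glutamatergic-like and 362 in GABAergic-like nuclei alone. The interaction over all nuclei went from 5 to 1 gene without the kidney and liver clusters. The cause of the other changes was not tested.

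Replicate numbers did not pair the libraries (correlations of -0.0127, 0.0421 and -0.0429). With 1 library left out, the 9 genes gave 0 to 1 calls for storage over all nuclei (4 to 840 of all genes), 0 to 3 in neuron-like nuclei (28 to 670), 2 to 8 for the primer over all nuclei (1009 to 5668), 6 to 7 in neuron-like nuclei (2472 to 3609) and 4 to 5 for the kinds of nuclei (5533 to 6213).

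Some directions reversed. For storage over all nuclei, Nrxn3 was 0.003607 with the block, 0.06314 without kidney and liver clusters, 0.04683 in glutamatergic-like and 0.006541 in GABAergic-like nuclei. Lrrtm3 was 0.0201, 0.04095 and 0.06453 in the last 3 settings, and in GABAergic-like nuclei Lrrtm2 was 0.047 and Lrrtm4 -0.00223. With 1 library left out, Nrxn3 ran from -0.0429 to 0.05044, Nlgn1 from -0.02845 to 0.1457, Lrrtm2 from -0.1997 to 0.1065, Lrrtm3 from -0.08366 to 0.06327 and Lrrtm4 from -0.02071 to 0.1433. In neuron-like nuclei Nlgn2 then ran from -0.1553 to 0.003304 and Lrrtm2 from -0.1168 to 0.09438. For the primer, Nrxn2 was 0.03272 in glutamatergic-like and Lrrtm1 0.3894 in GABAergic-like nuclei, against -0.2336 over all nuclei. Without both preindexed frozen libraries Lrrtm2 was 0.08863 for storage, and Lrrtm1 was 0.07674 and Lrrtm2 0.124 for the primer, in neuron-like nuclei. The interaction without kidney and liver clusters was 0.05898 for Nrxn2 and 0.02557 for Nrxn3. Depth was lowest for Lrrtm1, Lrrtm2 and Nlgn3, with 2856, 4377 and 6058 UFIs in all. The settings by kind of nuclei, without both preindexed frozen libraries, with total-UFI scaling and for the interaction without kidney and liver clusters were chosen after seeing the data.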
